A study of Homo sapiens with 4 samples.

Results

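The microRNA genes described here are the 171 genes, of 18417 represented on the array by a probe set with a single gene symbol, whose symbol in the platform annotation begins with MIR and a number or with MIRLET7. Symbols ending in HG, which mark host genes, were left out, as were MIR218-1 and MIR218-2, and a gene with several probe sets was represented by the brightest. The samples came from H1299 cells, an established human lung cancer line of the non-small cell type with no p53 of its own, into which a tet-on mouse p53 gene had been stably introduced. Doxycycline turns such a gene on. The induced group was this line after 24 hours in 0.5 µg/mL doxycycline (2 arrays), and the uninduced group was the same line before induction (2 arrays). Both groups carried the construct and were grown with tetracycline-free serum, and no array came from H1299 cells given doxycycline without the construct. The question is how transcript levels differ when these cells make p53. The labels call the 2 arrays of a group technical replicates, so the p-values below reflect only array-to-array spread, and precision is limited by the small number of arrays. In RNA from a whole culture, fewer cells with a transcript and less of it per cell cannot be told apart.

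A microRNA (miRNA) is cut from a long primary transcript, first in the nucleus by DROSHA with DGCR8 into a hairpin, then in the cytoplasm by DICER1 into a short mature strand that guides an Argonaute protein to messenger RNAs. Pairing rests mainly on the seed, bases 2 to 8 of the mature strand. Many miRNA hairpins lie inside introns or exons of longer host genes and are transcribed with them. In p53 biology the miR-34 family is the best known set of direct transcriptional targets, and miR-107, whose hairpin lies in an intron of PANK1, has also been reported as one. The array was hybridised with labelled cDNA from total RNA, so a probe set over a hairpin reads whatever transcript covers it. Primary transcript, host intron and hairpin were not separated, and the mature strand was not measured on its own.

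The mature strands below are those of the 14 called miRNA genes with the largest changes (adjusted p under 0.05, defined further on) and of MIR103A1, added for its seed, shown so that genes with the same seed can be compared directly. They are RefSeq sequences on GRCh38.p14, written 5′ to 3′ with the seed in capitals. The first 3 genes share the seed GCAGCAU and rose, as did MIR34A, and the others fell and are ordered by seed.
hsa-miR-107 (MIR107, chr10:89592756-89592778, minus strand): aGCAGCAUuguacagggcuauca
hsa-miR-103a-3p (MIR103A2, chr20:3917541-3917563, plus strand): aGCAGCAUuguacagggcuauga
hsa-miR-103a-3p (MIR103A1, chr5:168560904-168560926, minus strand): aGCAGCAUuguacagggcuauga
hsa-miR-34a-5p (MIR34A, chr1:9151735-9151756, minus strand): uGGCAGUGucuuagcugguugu
hsa-let-7a-5p (MIRLET7A2, chr11:122146568-122146589, minus strand): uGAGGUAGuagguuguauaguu
hsa-let-7f-5p (MIRLET7F1, chr9:94176353-94176374, plus strand): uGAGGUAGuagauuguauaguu
hsa-miR-15a-5p (MIR15A, chr13:50049167-50049188, minus strand): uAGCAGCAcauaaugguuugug
hsa-miR-15b-5p (MIR15B, chr3:160404607-160404628, plus strand): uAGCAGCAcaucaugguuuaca
hsa-miR-25-3p (MIR25, chr7:100093571-100093592, minus strand): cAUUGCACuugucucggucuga
hsa-miR-32-5p (MIR32, chr9:109046272-109046293, minus strand): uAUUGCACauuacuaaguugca
hsa-miR-106b-5p (MIR106B, chr7:100094043-100094063, minus strand): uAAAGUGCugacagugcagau
hsa-miR-100-5p (MIR100, chr11:122152275-122152296, minus strand): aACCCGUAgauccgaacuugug
hsa-miR-21-5p (MIR21, chr17:59841273-59841294, plus strand): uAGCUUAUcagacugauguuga
hsa-miR-31-5p (MIR31, chr9:21512158-21512178, minus strand): aGGCAAGAugcuggcauagcu
hsa-miR-221-3p (MIR221, chrX:45746180-45746202, minus strand): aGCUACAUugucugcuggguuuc
Counted from the 5′ end, miR-103a-3p and miR-107 differ only by G22C, outside the seed, and let-7a and let-7f differ only by G12A. RefSeq entries gave a mature strand for 162 of the 171 genes and a hairpin for 153. Together they held 223 different seeds, 46 of them shared by at least 2 of the genes.

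The hairpins of the miR-103 and miR-107 genes are shown because a probe set over one may also read another, and that of MIRLET7A2 because its probe set fell the most. Capitals mark the mature strand.
MIR107 (chr10:89592747-89592827, minus strand): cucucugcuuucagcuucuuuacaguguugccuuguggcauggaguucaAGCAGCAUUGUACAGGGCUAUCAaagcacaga
MIR103A2 (chr20:3917494-3917571, plus strand): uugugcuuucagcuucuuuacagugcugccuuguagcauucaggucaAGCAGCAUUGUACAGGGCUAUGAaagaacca
MIR103A1 (chr5:168560896-168560973, minus strand): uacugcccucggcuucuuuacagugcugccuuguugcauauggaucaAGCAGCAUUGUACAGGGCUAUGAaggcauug
MIRLET7A2 (chr11:122146522-122146593, minus strand): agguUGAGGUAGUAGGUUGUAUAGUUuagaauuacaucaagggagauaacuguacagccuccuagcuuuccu
Aligned end to end, the MIR103A2 and MIR107 hairpins were identical at 85.2% of positions, MIR103A1 and MIR103A2 at 80.8%, and MIR103A1 and MIR107 at 79.0%. The probe sequences were not used here, so the share of each of these 3 values that comes from another copy is uncertain, and the same holds for the let-7 and miR-16 copies. By contrast, the hairpins of the neighbours MIR15A and MIR16-1 were identical at 50.6% of positions.

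The induction showed in established p53 targets of the same arrays. CDKN1A, the p21 inhibitor of cyclin-dependent kinases, stood at 12.63 and 12.50 log2 units on the induced arrays, against 9.16 and 9.11 on the uninduced arrays. MDM2, the ubiquitin ligase that degrades p53, stood at 12.70 and 12.76 on the induced arrays, against 9.84 and 9.85 on the uninduced arrays. Across all genes the arrays correlated at r = 0.995 within the induced pair and r = 0.997 within the uninduced pair, against 0.917 to 0.921 between groups (genes are not independent replicates). Of 4 markers of the carcinoma line, the keratin KRT8 rose by 1.145 log2 units, with means of 10.63 induced and 9.485 uninduced, and vimentin (VIM) fell by 0.40, with means of 12.32 induced and 12.72 uninduced. The keratin KRT18 (11.04 induced, 11.135 uninduced) and the epithelial adhesion gene EPCAM (5.50 induced, 5.45 uninduced) were not called. Of 4 markers of differentiated lung epithelium, 2 rose: SCGB1A1 by 2.03 log2 units and SFTPC by 0.295. The 4 group means ranged from 6.09 to 8.53 in induced and from 6.18 to 6.64 in uninduced cells. Of 5 measured blood cell markers, only CD3E was called, and it rose by 0.26 (6.06 induced, 5.80 uninduced). CD68 was the brightest of the 5 (11.92 induced, 11.74 uninduced) and was not called. None of 5 endothelial and fibroblast markers passed the test. The part of these markers in the results below was not tested.

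Most miRNA gene probe sets did not pass the test. Calls required an adjusted p under 0.05 in limma's moderated test (Benjamini-Hochberg over all 18417 genes), and 28 of the 171 miRNA genes (16.4%) were called, against 45.1% of all genes. Of the 28, 10 were higher in induced cells (5.85% of the miRNA genes, against 20.6% of all genes) and 18 were lower (10.5%, against 24.6%). At 2-fold or more, 3 miRNA genes rose (1.75%, against 6.48% of all genes) and 6 fell (3.51%, against 6.77%). The induced and uninduced arrays did not overlap for 66 miRNA genes (38.6%), against 66.8% of all genes. The median log2 fold change was 0.005 over the miRNA genes and 0.00 over all genes, and 130 of the 171 lay within 0.2 log2 units of no change. A further 6 of the 143 uncalled genes had an unadjusted p under 0.05, and a p that misses the threshold does not show that levels were alike.

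The miRNA probe sets were also dimmer than most. Their mean level over the 4 arrays ranged from 2.88 to 9.70 log2 units with a median of 5.62, against a median of 7.74 over all genes. Among the 2479 genes whose mean lay under 5.62, miRNA genes included, 243 were called, or 9.8%. Of the 67 miRNA genes with a mean level under 5, 7 were called (10.4%), and of the 104 at 5 or more, 21 were called (20.2%). The cut of 5 differs from 5.62, and the share over all genes was not taken at 5. The median standard error of a log2 fold change was 0.101 for the miRNA genes and 0.0923 for all genes. Leaving out any 1 array lowered the count of calls, both for the miRNA genes and for all genes, and most so without an uninduced array. With each array centred on its median the 28 calls became 29, of which 14 were higher and 15 lower, with all 33297 rows fitted there were 5 higher and 15 lower, and with dim genes left out only 33 miRNA genes remained, 9 of them called.

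**Figure D1:**
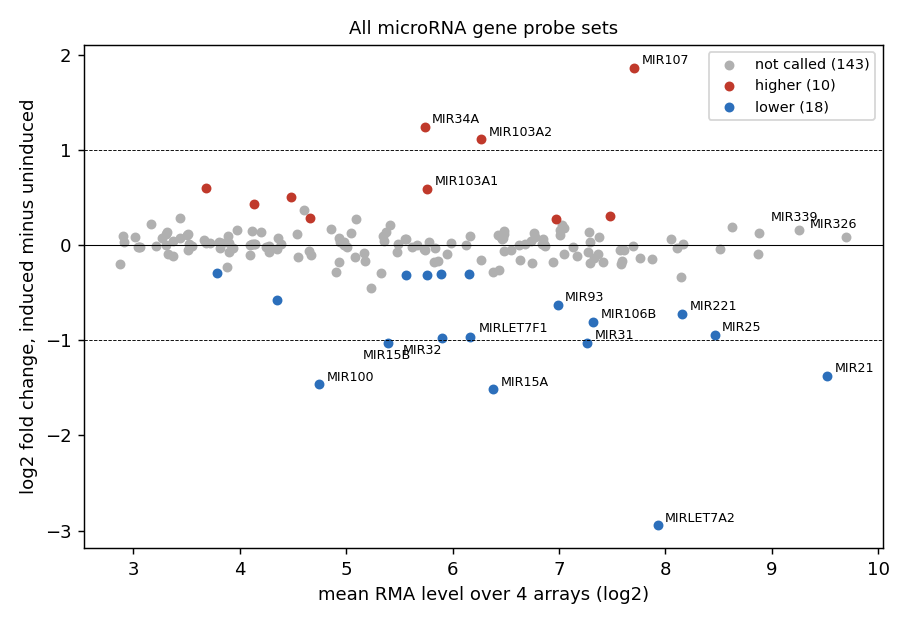
Log2 fold change (induced minus uninduced) of each of the 171 miRNA gene probe sets against its mean RMA level over the 4 arrays (log2), with red for the 10 called higher, blue for the 18 called lower and dashed lines at 2-fold. Most points lie near 0 at every level, and MIR107 (1.865) and MIRLET7A2 (-2.945) lie farthest out.

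MIR107 rose the most of the miRNA genes. It belongs to the miR-103 and miR-107 family, which is known for roles in lipid and glucose metabolism and for restraining DICER1 and CDK6, and its hairpin lies in PANK1, a pantothenate kinase of coenzyme A synthesis. Its probe set stood at 8.43 and 8.85 log2 units on the induced arrays, against 6.67 and 6.88 on the uninduced arrays. The groups did not overlap, and the rise was 3.64-fold (log2 fold change 1.865, SE 0.15, limma adjusted p = 3.7e-05). PANK1 itself stood at 9.96 and 10.12 on the induced arrays and 7.49 and 7.54 on the uninduced arrays, a log2 fold change of 2.525.

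The other genes with the same seed also rose, by less. MIR103A2, in PANK2, stood at 6.70 and 6.95 on the induced arrays, against 5.68 and 5.75 on the uninduced arrays (log2 fold change 1.11, SE 0.11, limma adjusted p = 9.3e-05). MIR103A1, in PANK3, stood at 5.84 and 6.28 on the induced arrays, against 5.56 and 5.38 on the uninduced arrays (log2 fold change 0.59, SE 0.15, limma adjusted p = 0.0135). In both genes the groups did not overlap, but the call of MIR103A1 was lost without induced replicate 2 (log2 fold change 0.37) and without either uninduced array (0.68 and 0.50). The hosts went different ways: PANK2 rose by 0.585 log2 units (adjusted p = 0.00078) and PANK3 fell by 0.41 (adjusted p = 0.0079), so MIR103A1 was the single miRNA gene called opposite to its host.

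MIR34A, which encodes the miRNA best known for repressing cell cycle and survival genes downstream of p53, stood at 6.28 and 6.44 log2 units on the induced arrays, against 5.18 and 5.05 on the uninduced arrays. This was a 2.37-fold rise with no overlap between groups (log2 fold change 1.245, SE 0.10, limma adjusted p = 3.5e-05). Its family member MIR34B, from a different locus on chromosome 11, stood at 5.09 and 4.60 on the induced arrays, against 4.84 and 5.20 on the uninduced arrays. The MIR34B groups overlapped, and its log2 fold change of -0.175 did not pass the test (adjusted p = 0.501). MIR34C and the host gene MIR34AHG were not analysed here.

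The remaining rises, 7 with MIR103A1, were smaller, between 0.275 and 0.595 log2 units, and each lost its call without at least 1 of the arrays. MIR30D, of the miR-30 family, stood at 4.68 and 4.79 on the induced arrays, against 4.18 and 4.29 on the uninduced arrays (adjusted p = 0.0027; lost without uninduced replicate 1, where the log2 fold change was 0.445). MIR30B, of the same family, rose by 0.595 log2 units (adjusted p = 0.037), with 3.66 and 4.30 on the induced arrays and 3.32 and 3.45 on the uninduced arrays. The spread between the induced arrays of MIR30B was larger than the gap between the nearest arrays of the groups, and the log2 fold change without induced replicate 2 was 0.275.

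MIR28, in the LIM-domain gene LPP, rose by 0.435 log2 units (adjusted p = 0.0141), MIR211, in the melanocyte channel gene TRPM1, by 0.305 (adjusted p = 0.0409), MIR135A1 by 0.285 (adjusted p = 0.0304) and MIR188, in the chloride channel gene CLCN5, by 0.275 (adjusted p = 0.0315). MIR28 lost its call without any single array other than uninduced replicate 1, and MIR211, MIR135A1 and MIR188 lost theirs without any 1 of the 4 arrays.

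**Figure D2:**
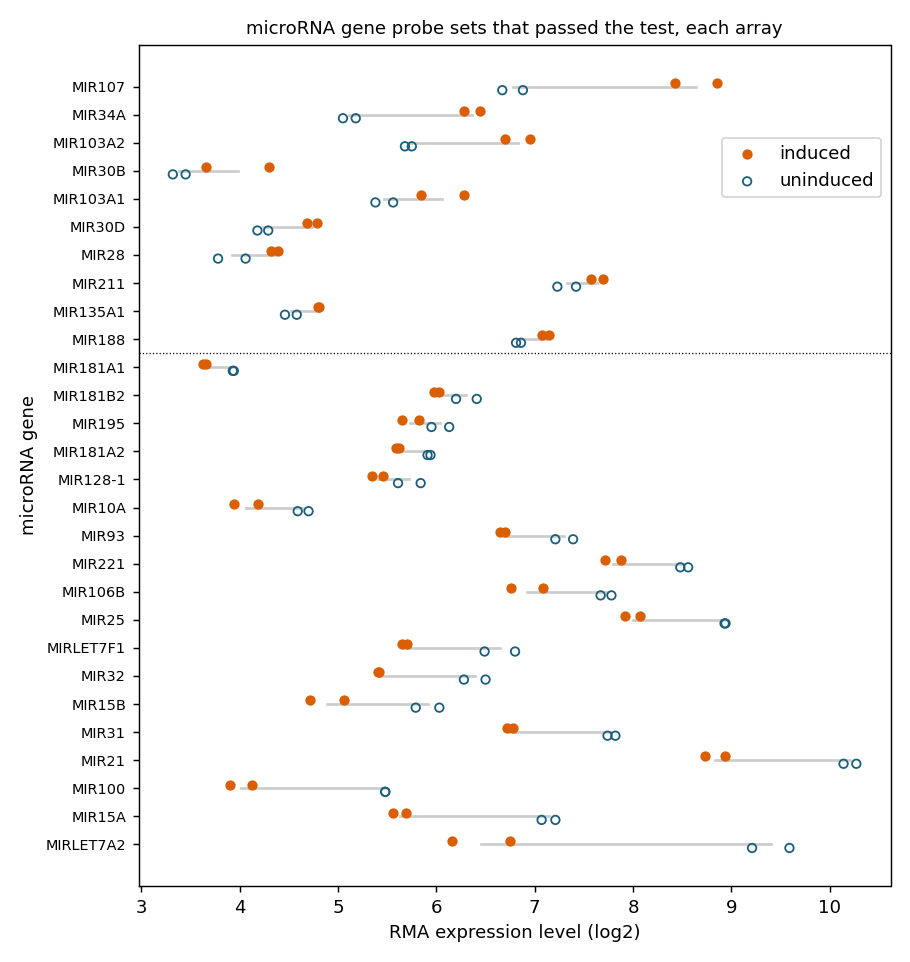
RMA level (log2) on each array of the 28 miRNA genes that passed the test, with filled points for the 2 induced arrays, open points for the 2 uninduced arrays and a grey line joining the group means. The 10 genes above the dotted line were higher and the 18 below it lower in induced cells, and no gene shown has overlapping groups.

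MIRLET7A2 fell the most. It encodes let-7a, a miRNA known for repressing RAS genes and HMGA2, and lies in the long noncoding host gene MIR100HG on chromosome 11. Its probe set stood at 6.16 and 6.75 log2 units on the induced arrays, against 9.21 and 9.59 on the uninduced arrays. The induced level was 0.130 of the uninduced level (log2 fold change -2.945, SE 0.20, limma adjusted p = 1.8e-05), although the arrays of each group also spread more than for most miRNA genes.

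MIR100, in the same host and known for repressing the kinase mTOR, stood at 4.13 and 3.90 on the induced arrays, against 5.48 on both uninduced arrays (log2 fold change -1.465, SE 0.10, adjusted p = 1.9e-05 in limma). MIR125B1, the homologue of the lin-4 miRNA of worms and also in MIR100HG, stood at 5.87 and 5.93 on the induced arrays, against 5.98 and 6.01 on the uninduced arrays. The 3 genes of this host thus gave log2 fold changes of -2.945, -1.465 and -0.095, and that of MIR125B1 did not pass the test (adjusted p = 0.420). MIR100HG has no single-symbol value here.

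The other let-7 genes mostly stayed uncalled. Of 10 measured of 13 listed, MIRLET7A2 and MIRLET7F1 fell (20%, against 24.6% of all genes lower), none rose, and the median log2 fold change was -0.135. MIRLET7F1 stood at 5.70 and 5.65 on the induced arrays, against 6.49 and 6.80 on the uninduced arrays (log2 fold change -0.97, SE 0.12, limma adjusted p = 0.000301), and its call was lost without induced replicate 2 (log2 fold change -0.945). Its neighbours in MIRLET7A1HG were MIRLET7A1, whose mature strand is also let-7a, and MIRLET7D. They had log2 fold changes of 0.005 (adjusted p = 0.982) and -0.095 (adjusted p = 0.582), and their groups overlapped. Besides MIRLET7F1, then, no measured miRNA gene of that host passed the test.

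MIR15A and MIR15B, which encode miRNAs of 1 seed known for repressing BCL2 and cyclin D1, both fell. MIR15A stood at 5.56 and 5.69 log2 units on the induced arrays, against 7.07 and 7.21 on the uninduced arrays (log2 fold change -1.515, SE 0.095, limma adjusted p = 1.2e-05). Its host DLEU2, a noncoding gene often deleted in chronic lymphocytic leukaemia, stood at 5.0 and 5.39 on the induced arrays, against 8.14 and 8.09 on the uninduced arrays, a log2 fold change of -2.92. MIR16-1, beside MIR15A in DLEU2, stood at 3.73 and 3.88 on the induced arrays and 3.87 and 3.80 on the uninduced arrays, which overlapped (log2 fold change -0.03, adjusted p = 0.838).

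The second pair lies in the condensin gene SMC4. MIR15B stood at 4.71 and 5.06 on the induced arrays, against 5.79 and 6.03 on the uninduced arrays (log2 fold change -1.025, SE 0.14, limma adjusted p = 0.000571), and lost its call without uninduced replicate 2 (-0.905). MIR16-2 stood at 3.76 and 3.77 on the induced arrays and 4.18 and 3.81 on the uninduced arrays, which did not overlap, but its log2 fold change of -0.23 was not called (adjusted p = 0.195). SMC4 itself had a log2 fold change of -1.975. Both miR-16 probe sets were dim, with mean levels of 3.82 and 3.88. Of the 5 genes with the seed AGCAGCA, MIR15A, MIR15B and MIR195 were lower, against 10.5% of the miRNA genes and 24.6% of all genes. The call of MIR195 was narrow (limma adjusted p = 0.0469) and was lost under most alternatives.

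The 3 genes of the miR-106b/25 cluster, which lies in introns of the replication helicase gene MCM7 and is known for repressing CDKN1A and BCL2L11, all fell. MIR25 stood at 7.92 and 8.07 log2 units on the induced arrays, against 8.94 and 8.93 on the uninduced arrays (log2 fold change -0.94, SE 0.090, limma adjusted p = 9.5e-05). MIR106B stood at 7.08 and 6.76 on the induced arrays, against 7.78 and 7.67 on the uninduced arrays (log2 fold change -0.805, adjusted p = 0.00099). MIR93 stood at 6.65 and 6.70 on the induced arrays, against 7.39 and 7.21 on the uninduced arrays (log2 fold change -0.625, adjusted p = 0.00106). No groups overlapped. The call of MIR106B was lost without either uninduced array (log2 fold changes of -0.75 and -0.86), and that of MIR93 without induced replicate 1 (-0.60). MCM7 stood at 9.95 and 10.03 on the induced arrays, against 12.19 and 12.11 on the uninduced arrays, a log2 fold change of -2.16 and so a larger fall than that of any of the 3 miRNA genes inside it.

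The promoter of MCM7 is shown because these 3 genes moved with it. It is the RefSeq window of 250 bases before the gene's start on GRCh38.p14 (chr7:100101398-100101647, minus strand), with a match to an E2F motif in capitals.
MCM7: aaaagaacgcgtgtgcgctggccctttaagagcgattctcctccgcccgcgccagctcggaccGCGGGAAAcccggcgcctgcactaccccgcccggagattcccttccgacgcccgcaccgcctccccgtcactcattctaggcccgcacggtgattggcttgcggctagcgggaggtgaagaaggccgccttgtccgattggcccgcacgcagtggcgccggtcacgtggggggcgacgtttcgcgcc
Windows from 250 bases before to 50 after the start were searched on both strands in 27305 genes, 19 of them hosts of called miRNA genes. The E2F motif (TTTCCCGC or TTTGGCGC) was in 2.31% of all windows and, among the 19 hosts, in MCM7, where the match is TTTCCCGC on the opposite strand. The CHR element of cell cycle genes (TTTGAA) was in 15.4% of all windows and in those of CLCN5, MIR100HG, PANK1 and SMC4. A p53 half-site was in 6.54% of all windows and, among the hosts, in MIR497HG, the host of MIR195. A match describes letters in the window, not binding.

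MIR21, one of the most abundant miRNA genes of carcinoma cells and known for repressing PDCD4, fell with a bright probe set. It stood at 8.73 and 8.93 log2 units on the induced arrays, against 10.27 and 10.14 on the uninduced arrays. The induced level was 0.386 of the uninduced level, with no overlap (log2 fold change -1.375, SE 0.10, limma adjusted p = 2.8e-05). Its host VMP1, an autophagy gene, fell by 0.88 log2 units (adjusted p = 0.00017).

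MIR31, whose miRNA is known for restraining metastasis in breast cancer cells, stood at 6.72 and 6.78 on the induced arrays, against 7.74 and 7.82 on the uninduced arrays (log2 fold change -1.03, SE 0.085, limma adjusted p = 4.5e-05). Its noncoding host MIR31HG fell by 1.315 log2 units. MIR32, whose miRNA has the seed of miR-25, stood at 5.42 and 5.41 on the induced arrays, against 6.28 and 6.50 on the uninduced arrays (log2 fold change -0.975, SE 0.099, limma adjusted p = 0.000132). Its host TMEM245 fell by 1.195 log2 units, so MIR31 and MIR32 each fell by less than their hosts.

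MIR221, known for repressing the cyclin-dependent kinase inhibitor CDKN1B, stood at 7.71 and 7.88 on the induced arrays, against 8.56 and 8.48 on the uninduced arrays (log2 fold change -0.725, SE 0.095, limma adjusted p = 0.000487). MIR222, its neighbour in MIR222HG with the same seed, stood at 6.97 and 7.25 on the induced arrays and 7.03 and 7.43 on the uninduced arrays. The MIR222 groups overlapped, with a log2 fold change of -0.12 (adjusted p = 0.593).

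MIR10A, which lies among the HOXB genes, fell by 0.58 log2 units (4.19 and 3.94 on the induced arrays, 4.70 and 4.59 on the uninduced arrays, adjusted p = 0.0031) and lost its call without either uninduced array (-0.525 and -0.635). MIR128-1, in R3HDM1, and MIR181A2 each fell by 0.32 (adjusted p = 0.0409 and 0.0140). MIR195, MIR181B2 and MIR181A1, named after their values were seen because they complete the 18, fell by 0.305, 0.30 and 0.29 (adjusted p = 0.0469, 0.0414 and 0.0213). These last 5 all lost their calls without either uninduced array. Of the alternatives, MIR195 and MIR181B2 kept theirs only with the mean of a gene's probe sets. MIR128-1 lost its call under 7 alternatives other than the dim filter, among them arrays centred on their medians and all rows fitted. The call of MIR181A1 was also lost without induced replicate 1. MIR181A1, MIR181A2 and MIR181B2 are 3 of the 5 measured genes with the miR-181 seed ACAUUCA. MIR181B1 (log2 fold change 0.04) and MIR181C (-0.135) were not called. Of all the miRNA genes 10.5% were lower, against 24.6% of all genes.

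**Figure D3:**
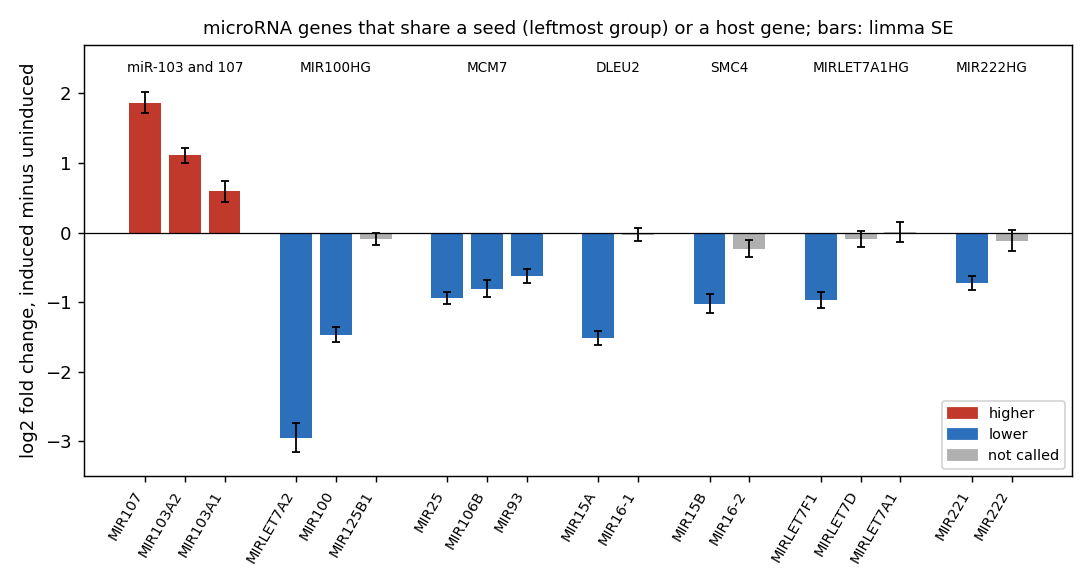
Log2 fold change (induced minus uninduced) of the 3 genes for miR-103 and miR-107 and of miRNA genes grouped by the host gene named above them, with red for higher, blue for lower, grey for not called and bars for limma's standard error. All 3 genes of MCM7 fell, whereas MIR16-1, MIR16-2, MIR125B1, MIRLET7A1, MIRLET7D and MIR222 were not called beside a neighbour that fell, with values between -0.23 and 0.005.

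Among the 162 miRNA genes with a RefSeq position, which leaves out MIR30B and MIR30D, those within 10 kb of each other on a strand formed 28 clusters of 73 genes. A called gene was present in 8 clusters. All members were called in 3: MIR25 with MIR93 and MIR106B, MIRLET7A2 with MIR100, and MIR181A2 with MIR181B2. Every call in a cluster was lower, so no cluster could show both directions. Of all the miRNA genes 16.4% were called, against 45.1% of all genes.

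Among miRNA genes linked to p53 in the literature, most were not called. Of 20 listed genes 12 were measured, of which MIR107 and MIR34A rose, MIR15A fell, and the median log2 fold change was -0.035. The 3 calls are 25% of the list, against 16.4% of the miRNA genes and 45.1% of all genes. The epithelial miRNA genes MIR200C and MIR141 had log2 fold changes of 0.025 (adjusted p = 0.850) and -0.125 (adjusted p = 0.507). MIR192, MIR194-1, MIR194-2 and MIR215, which are enriched in gut and kidney, lay between -0.045 and 0.14, with adjusted p-values from 0.348 to 0.975. MIR149 had a log2 fold change of -0.05 (adjusted p = 0.783) while its host GPC1, a cell surface proteoglycan, rose by 1.535. MIR16-1 and MIR34B, given above, complete the 12, and 9 of them had a log2 fold change within 0.2 of 0.

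Of 19 listed miRNA genes linked to MYC and E2F, 10 were measured. None rose and 5 fell (MIR15B, MIR25, MIR93, MIR106B and MIR221), with a median of -0.43 over the 10. Fewer of them were called without induced replicate 1 and without either uninduced array, and fewer of all genes were as well. The 5 calls are 50% of the list, against 16.4% of the miRNA genes and 45.1% of all genes, of which 24.6% were lower. MIR106A, MIR19B2 and MIR92A2, the measured genes of the miR-106a and miR-363 cluster on the X chromosome, had dim probe sets (mean levels of 3.375 to 3.68) and log2 fold changes of -0.05, -0.12 and 0.025 that did not pass the test. MIR16-2 and MIR222, described above, were the other uncalled members. By seed, MIR106B and MIR93 fell and MIR106A did not pass among the genes with AAAGUGC, and MIR25 and MIR32 fell and MIR92A2 did not pass among those with AUUGCAC.

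Lists of miRNA genes from other settings gave no calls, against 16.4% of the miRNA genes and 45.1% of all genes. Among all genes with a mean level under 5.62, 9.8% were called. All 19 measured miRNA genes known from other tissues (of 31 listed) were uncalled by limma, and 1 had an unadjusted p under 0.05. Their mean levels ran from 2.88 to 7.59 with a median of 4.25, against a median of 5.62 over all the miRNA genes. Also uncalled were the 16 measured genes of the imprinted cluster on chromosome 14 and the 2 of the primate cluster on chromosome 19. So were the 6 measured of the miR-200 and miR-205 list, which do not include MIR205. In these lists 0 genes had an unadjusted p under 0.05. The median levels of these lists were 4.11, 3.92 and 5.535, so with few and mostly dim probe sets the lack of calls says little about them.

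The brightest miRNA probe sets were those of MIR326 (mean level 9.70), MIR21 (9.52), MIR339 (9.255), MIR210 (8.875), known as a miRNA of the hypoxia response, and MIR193A (8.87). Apart from MIR21 none was called, with log2 fold changes of 0.085, 0.16, 0.13 and -0.09 for MIR326, MIR339, MIR210 and MIR193A. The level of a probe set followed the base composition of its hairpin: over the 153 genes with a hairpin sequence, whose G and C content ran from 28.8% to 73.6%, Pearson's r with the mean level was 0.668 and Spearman's rho 0.659. The 51 genes with most G and C had a median level of 6.97, and the 51 with least had 4.095. The log2 fold change was only weakly related to G and C content (r = 0.117), and 5 of the 51 genes with most and 7 of the 51 with least were called. These are descriptions across probe sets that share 4 arrays, and levels of different probe sets do not rank amounts of RNA.

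**Figure D4:**
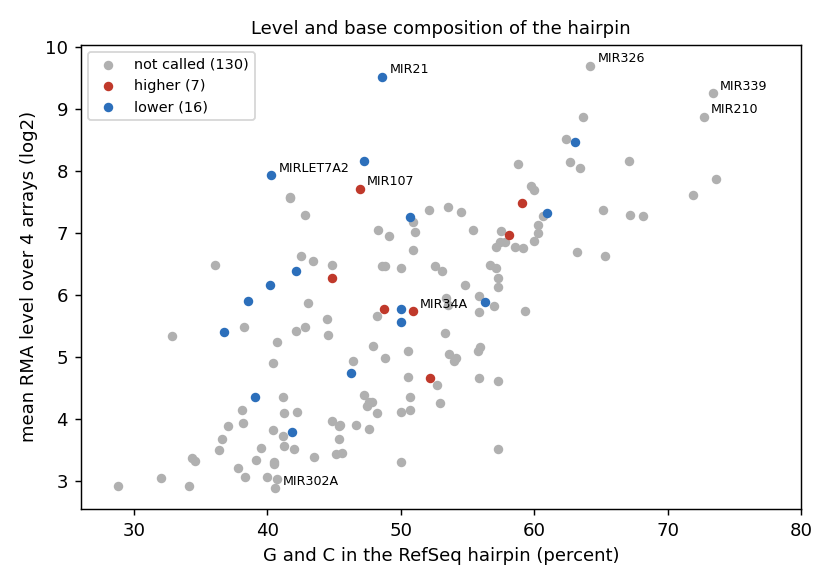
Mean RMA level over the 4 arrays (log2) against the percentage of G and C in the RefSeq hairpin for the 153 miRNA genes with a hairpin sequence, coloured by call. Levels are higher at higher G and C content (r = 0.668), and called genes are found across the range.

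Position set miRNA genes beside their hosts. Of 162 genes with a RefSeq position, 110 lay within the bounds of a longer gene on the same strand, in 79 host genes (whether in an exon or an intron was not determined). Of these 110, 22 were called (20%), against 45.1% of all genes. Of the 61 miRNA genes with no host found, 6 were called (9.84%). The 61 include the genes without a RefSeq position, whose host is unknown here, among them the called MIR30B and MIR30D. For 61 miRNA genes in 50 hosts, both the miRNA gene and the host had a value. Both were called in the same direction in 13 pairs, 4 higher (MIR107, MIR103A2, MIR28 and MIR188) and 9 lower, in opposite directions in 1 (MIR103A1 with PANK3), the miRNA gene alone in 1 (MIR211 with TRPM1), the host alone in 22 and neither in 24. The host was called higher in 16 of the 61 pairs and lower in 20, against 20.6% and 24.6% of all genes. Of the 9 lower pairs, those of MIR25, MIR93 and MIR106B share the host MCM7. Without uninduced replicate 2 the pairs in the same direction numbered 8, and without induced replicate 1 those in opposite directions numbered 2.

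In 11 of the 13 pairs the miRNA gene changed less than its host, the exceptions being MIR21 with VMP1 (-1.375 against -0.88) and MIR103A2 with PANK2 (1.11 against 0.585). Hosts that fell at least 2-fold held 10 of the miRNA genes, some of them in the same host (MCM7, DLEU2 or SMC4). Of the 10, 7 were called lower, against 10.5% of all the miRNA genes and 24.6% of all genes. MIR16-1, MIR16-2 and MIR301A, in SKA2, were the others, and MIR301A had a log2 fold change of -0.455 (adjusted p = 0.0848). The SKA2 probe set is numbered among those of chromosome 9, whereas MIR301A lies on chromosome 17. Where the SKA2 probes lie was not checked. Hosts that rose at least 2-fold were PANK1, LPP, GPC1 and TANGO2, and the miRNA gene rose in PANK1 and LPP but was not called in GPC1 (MIR149) or TANGO2 (MIR185, 0.06). MIR301A and MIR185 were named after their values were seen. Over the 61 pairs the log2 fold changes of miRNA gene and host had a Pearson's r of 0.705 and a Spearman's rho of 0.584, as a description of pairs measured on the same arrays, some of which share a host. Where the host alone was called the miRNA gene's median level was 5.61, and where both were called it was 6.68.

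**Figure D5:**
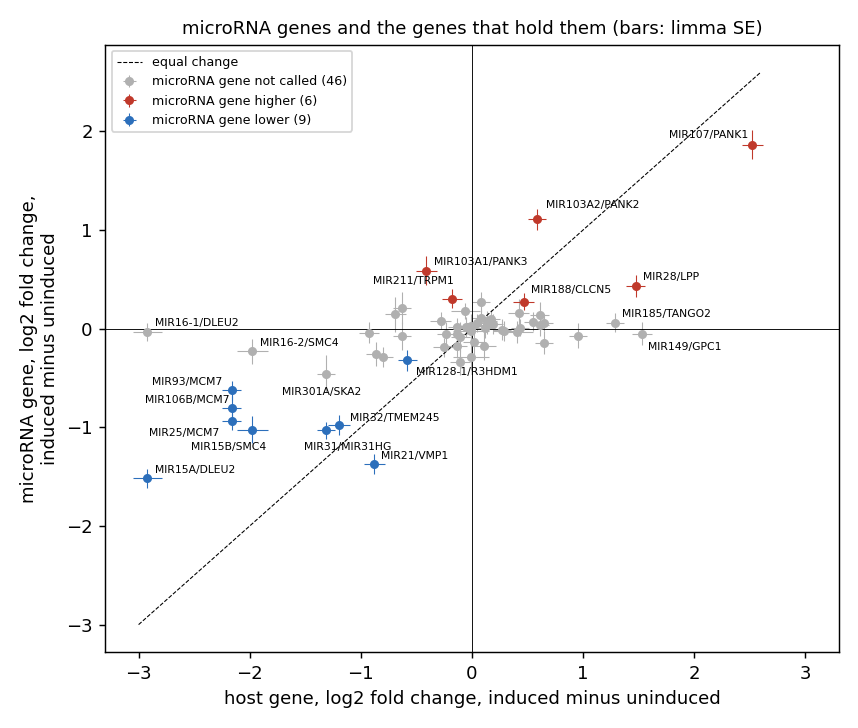
Log2 fold change (induced minus uninduced) of the miRNA gene against that of its host gene for the 61 pairs with both measured, with bars for limma's standard error and a dashed line at equal change. Most coloured points lie nearer 0 on the vertical axis than on the horizontal one, and MIR103A1 with PANK3 lies in the upper left part of the plot.

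The genes that make and use miRNAs were all measured, and most were called. Of 32 listed genes 7 rose and 18 fell (78.1% in all, against 45.1% of all genes), with a median log2 fold change of -0.31. Of all genes, 20.6% were higher and 24.6% lower. The list was bright, with a median level of 9.53 against 7.74 over all genes, and a median standard error of 0.0853 against 0.0923. The part of level in the count was not tested. By size of change, TNRC6C, a GW182 scaffold of the silencing complex, led with 9.67 and 9.52 log2 units on the induced arrays, against 7.71 and 7.89 on the uninduced arrays (log2 fold change 1.795, SE 0.10, limma adjusted p = 7.4e-06). RAN, the GTPase that drives export of the hairpin by XPO5, fell by 1.065 log2 units. The RAN probe set is numbered among those of chromosome 6, which is not the chromosome of the RAN gene. Where its probes lie was not checked. PRKRA, a partner of DICER1, fell by 0.935 and the Argonaute AGO4 fell by 0.925. MOV10, a helicase of the silencing complex, rose by 0.925, the same size of change as that of AGO4. The following were named for their place in the pathway after their values were seen. The log2 fold changes of DROSHA (-0.895), DGCR8 (-0.795), XPO5 (-0.30), DICER1 (-0.61) and AGO2 (-0.83) passed the test, as did the rises of the helicase DDX5 (0.785), which works with DROSHA, and of the scaffold TNRC6B (0.545). The Argonaute AGO3 (0.22, adjusted p = 0.0637) and the DICER1 partner TARBP2 (-0.005, adjusted p = 0.975) did not pass.

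Genes reported as miR-34 targets were set beside MIR34A. Of 23 measured of 24 listed, 3 rose and 10 fell, with a median log2 fold change of -0.135. Their median level was 9.26, against 7.74 over all genes. Fewer of them were called when 1 uninduced array was left out, and fewer of all genes were as well. CCNE2, cyclin E2, stood at 6.03 and 6.16 on the induced arrays, against 9.49 and 9.50 on the uninduced arrays, a log2 fold change of -3.4 (SE 0.088, limma adjusted p = 6.1e-07). CCND1, cyclin D1, fell by 1.645, its kinase CDK4 by 1.30 and the transcription factor MYC by 0.995. The 3 that rose, named after their values were seen, were the receptors NOTCH1 (0.695) and MET (0.375) and the transcription factor E2F3 (0.40). Of these genes, 56.5% were called, against 45.1% of all genes.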

How the data were processed

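Per the labels' protocols, total RNA was turned into biotin-labelled cDNA and read on an Affymetrix array of the whole-transcript kind. The deposited values are log2 expression levels, 1 per probe set and array, made by the authors with Affymetrix Expression Console and RMA, per the submitters' processing notes. Their versions and the array's genome build are not given in the sources. RMA equalises the arrays' distributions, which hides a shift common to all transcripts and compresses changes of dim probe sets. Array medians were 7.26 to 7.33 log2 units.

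Of 33297 rows, 19460 had 1 gene symbol, 1754 several and 12083 none in the platform annotation. The probe set with the highest mean represented a gene, which left 18417 genes. They were fitted with limma 3.58.1 in R 4.3.3 (lmFit and eBayes, constant prior, two-sided, no covariates), with 2 residual degrees of freedom and 7.20 in total, after the fit was tested on simulated data. Sequences, positions and hosts came from RefSeq tables of GRCh38.p14, and a host was a longer gene that encloses the miRNA gene on the same strand. Tables and figures used Python 3.11.15, pandas 2.3.3 and matplotlib 3.10.9.

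The members and lists were chosen with earlier results of these data known. The miRNA genes named are the measured members of the p53-linked and the MYC- and E2F-linked lists, up to 15 called genes each way with the largest changes and no overlap of groups (10 rose), the 5 brightest, and those sharing a host with a named gene. Other genes named are the hosts of these, CDKN1A and MDM2, and the 4 largest changes of the processing list and of the miR-34 target list. Seed groups and clusters were set out after the values were seen. The alternatives were arrays centred on their medians, a second quantile normalization, dim genes left out (mean level under the 40th percentile), the mean of a gene's probe sets, all rows, an intensity trend with a robust prior, the replicate number as a block, and leaving out each array.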

Additional observations from a re-analysis of the deposited data

Results flagged for a closer look

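Outside the genes with a single symbol, 32 probe sets were annotated with several symbols that include a miRNA gene, and none of them entered the results above. When all rows of the table were fitted together with limma, 1 of the 32 was called, lower in induced cells, with mean levels of 4.75 induced and 5.585 uninduced (log2 fold change -0.835, SE 0.21, adjusted p = 0.0352). In the same fit 7308 of the 18417 genes with a single symbol were called, a larger share than 1 of 32. The 32 ranged from -0.835 to 0.32 in log2 fold change, and 2 had an unadjusted p under 0.05. The called probe set drew attention as a signal in data that the comparison did not use. It is left unnamed because its probes are assigned to more than 1 gene.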

How the results depend on the processing

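With 2 technical arrays per group, precision rests on limma's pooled spread, dim probe sets compress changes, and no array gave a detection call. With dim genes left out, 33 miRNA genes remained, of which 9 were called (2 higher, 7 lower, 4 at 2-fold). Their median log2 fold change was -0.07, with 1 p53-linked gene, 3 MYC- and E2F-linked genes, and 4 host pairs called in the same direction and 0 in opposite directions, because fewer genes were tested. With all rows fitted, 5 were higher and 0 pairs opposite. With the replicate block, 24 miRNA genes were called, 6 higher and 18 lower, and 0 pairs opposite. The replicate numbers mark technical arrays, and the deviations of same-numbered arrays correlated at 0.225 over all genes and 0.151 over the miRNA genes, over only 2 pairs, so the numbers were not taken as pairing. Centring arrays on their medians gave a median log2 fold change of 0.055 and shifted the median of all genes by 0.05. Leaving out each array gave 14 to 24 miRNA genes called (4 to 9 higher, 10 to 17 lower, 7 to 11 at 2-fold), a median log2 fold change of -0.045 to 0.035, 3 to 5 MYC- and E2F-linked genes, 7 to 13 miR-34 targets, 8 to 12 pairs in the same direction and 0 to 2 opposite. Across the alternatives, 423 values of the 46 miRNA genes named by rule kept their side of the threshold, 50 values of 14 genes lost the call and 1 gained it (MIR339 without induced replicate 2, 0.385). Of 258 values of called genes 0 changed sign, and of 216 values of uncalled genes 26, from 15 genes, did. This tally leaves out the miRNA genes named only after their values were seen. Of those, MIR195 and MIR181B2 kept their calls only with the mean of probe sets. MIR181A1 lost its call with the intensity trend and robust prior, without induced replicate 1 and without either uninduced array. MIR301A gained a call with the intensity trend and robust prior and with the replicate block. The cause of these changes, other than the number of genes or arrays used, was not tested. Under all 10 alternatives other than the dim filter, 11 miRNA genes kept their calls: MIR107, MIR34A and MIR103A2 higher, and MIRLET7A2, MIR15A, MIR100, MIR21, MIR31, MIR32, MIR25 and MIR221 lower.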
